A study of Homo sapiens with 4 samples.

Results

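The genes of BCR-ABL and STAT5 signalling were examined in a TT-seq comparison of K562 cells with and without IWS1. They were chosen by name as the rows of *BCR*, *ABL1*, *STAT5A*, *STAT5B*, *PIM1*, *CISH*, *SOCS2*, *GRB2*, *GAB2* and *JAK2*, and 9 of the 10 were matched among 10147 genes. *BCR* was not analysed here. TT-seq (transient transcriptome sequencing) isolates the RNA made during a short pulse of the labelled base 4-thiouridine (4sU) and so reads RNA synthesis. K562 is a human chronic myelogenous leukemia line. All groups used genome edited K562 cells in which IWS1, an elongation factor of RNA polymerase II, carries an N-terminal dTAG, a degron that marks the protein for degradation once its ligand is added. The edited cells came from clones checked by western blot and Sanger sequencing. The control group was given the solvent DMSO (2 libraries) and the dIWS1 group 500 nM dTAG7 (2 libraries), each for 1 h, with 500 µM 4sU for the next 5 min.

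BCR-ABL is the fusion kinase that drives chronic myelogenous leukemia. It is made from the 5′ part of *BCR* joined to most of *ABL1*, so that the *BCR* promoter drives the fused gene, and K562 cells are known to carry extra copies of it. The kinase recruits the adaptor GRB2, which brings in GAB2 and opens the RAS and PI3K routes, and it phosphorylates STAT5A and STAT5B, which otherwise receive their signal from cytokine receptors through the kinase JAK2. Active STAT5 enters the nucleus and turns on a set of target genes. PIM1 is a survival kinase of that set, and CISH and SOCS2 belong to the SOCS family, whose proteins are induced by STAT5 and damp receptor signalling in return.

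The deposited table gives 1 mean per gene over 4 library columns. Whole reads could be recovered from it for 10134 genes, and gave 1 distinct control column, entered with the weight of 2, and 2 different dIWS1 columns. The control libraries were therefore counted as 1 sample (n = 1, with no spread of its own) and dIWS1 as n = 2. The columns held 29588862 reads in genes for control, 20512882 for dIWS1 column 1 and 20727515 for dIWS1 column 2. The column numbers are names only. After division by the authors' spike-in size factors (1.01, 0.993 and 0.919) the values are called normalized reads, and column 1 lay below column 2 by a median of −0.12 on the log2 scale in 8898 genes. An exact permutation test of 1 column against 2 cannot give a p under 0.333, so single genes were tested with limma voom, which pools the spread over all genes. Its main fit used about 10134 degrees of freedom, 1 from each gene, as if the genes were independent. The offset between the dIWS1 columns is common to them, so small p-values of that fit do not measure the spread between replicates. Of 14 marker genes of the line, 13 were found, with 129 to 19500 control reads. Of 10 markers of other cell types 1 was found, *PAX6*, with 504. The gene *IWS1* itself, whose protein and not RNA the ligand targets, had 3649 normalized reads in control against 2350 and 2640 in the dIWS1 columns (log2 ratio −0.55 ± 0.15, SE), which says nothing about the depletion.

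RNA synthesis of 6 of the 9 measured genes was lower in dIWS1 cells than in control cells, and that of no measured gene was higher (limma voom, Benjamini-Hochberg adjusted over 10134 genes, threshold 0.05). The genes called lower were *ABL1*, *STAT5A*, *STAT5B*, *SOCS2*, *GRB2* and *GAB2*, by 0.35 to 0.78 on the log2 scale. *PIM1*, *CISH* and *JAK2* lay at log2 ratios of −0.26, −0.27 and −0.24 and did not pass. This stands against a general fall: 64.5% of all genes were called lower and 0.109% higher, and the median gene lay at −0.43. The 9 genes had a median of −0.41. *ABL1* and *STAT5B* were the members that lay furthest below the median gene. Directions depend on the scale: with total reads in genes as size factors *ABL1* (−0.34) and *STAT5B* (−0.19) were still called lower, *JAK2* was called higher (0.20), *STAT5A* was at −0.01 and the other 5 were above 0 without passing, while 11.1% of all genes were called lower and 15.1% higher. With the control column entered 2 times, which counts 1 column as 2 replicates without a difference between them, all 9 were called lower, with 77.8% of all genes lower and 0.602% higher.

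**Figure D1:**
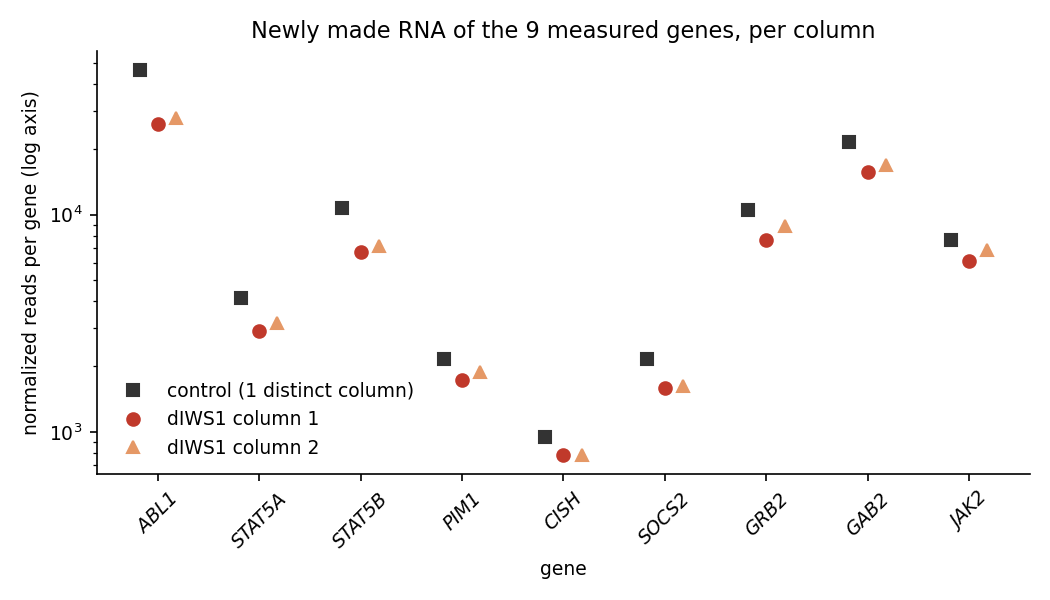
Normalized reads per gene (vertical log axis) of the 9 measured genes (horizontal axis), with 1 point for the control column and 1 for each dIWS1 column. In every gene the control point is the highest of the 3, and *ABL1* spans 46347 down to 26225. On this scale 96.4% of all genes had a mean log2 ratio below 0.

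*ABL1*, the kinase part of the fusion (gene 25, chromosome 9, 130713043 to 130887675 on the plus strand of GRCh38, 174633 bases in RefSeq), had 46792 reads in control, 26047 in dIWS1 column 1 and 25615 in column 2. On the spike-in scale these were 46347, 26225 and 27859 normalized reads. Both dIWS1 columns lay far below the control and close to each other. The log2 ratio was −0.78 ± 0.14 (SE, adjusted p = 1.93e-07), or 58.3% of control. Counting error alone allowed −0.80 to −0.76. By mean normalized reads *ABL1* ranked 24 of 10147 genes. Of all genes, 10.3% had a lower log2 ratio. Among the 2451 genes longer than 65 kb, whose median log2 ratio was −0.49, 8.85% had a lower ratio than *ABL1* and 1.10% a higher level per kb.

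The reads of *ABL1* come from the unbroken copies and from the fusion together, which a count per gene cannot tell apart, and copy number was not measured here. The levels of genes around *ABL1* are set beside it, and whether they bear on copy number was not tested. Within 1000 kb of it, 16 other genes of the table had a median level of 28.5 normalized reads per kb of gene span, over all columns, and *ABL1* had 210. *EXOSC2*, a subunit of the RNA exosome that ends in front of *ABL1* (at −8.15 kb from its start), had 1211 control reads, or 108 normalized control reads per kb. *ABL1* had 265 on that control scale. *NUP214*, a nuclear pore gene that begins 413 kb after the *ABL1* start, had 68251 control reads and 620 normalized control reads per kb. It was above *ABL1* as well as above the genes on both sides of it. *AIF1L*, which lies between *ABL1* and *NUP214*, had 19.6. The log2 ratios of the 16 genes ran from −0.94 to −0.03 with a median of −0.48, and *EXOSC2* (−0.48), *AIF1L* (−0.45) and *NUP214* (−0.47) lay near that median. Of the 16, 1 lay below *ABL1*, *LOC100272217* (−0.94, with 41 control reads), and the next lowest were the long genes *RAPGEF1* (−0.71) and *MED27* (−0.68), all 3 named after their values were seen.

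**Figure D2:**
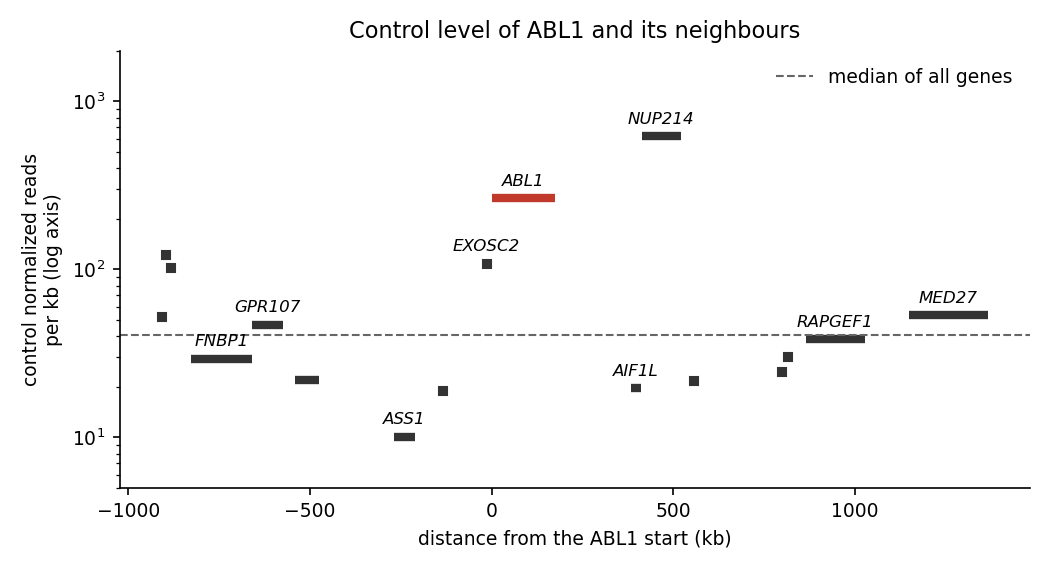
Control normalized reads per kb of gene span (vertical log axis) for *ABL1* (red) and the genes within 1000 kb of it (bars span each gene, squares mark short ones), against distance from the *ABL1* start in kb. *ABL1* (265) and *NUP214* (620) stand above all others, while *AIF1L* between them lies at 19.6.

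*BCR* spans chromosome 22 from 23180509 to 23318037 (plus strand, 137529 bases). RefSeq places 5 other genes on that span, of which *RSPH14*, a gene on the opposite strand, was measured, with 723 control reads, 5.03 normalized reads per kb over all columns and a log2 ratio of −0.51. Another of the 5, the pseudogene *FBXW4P1*, lies on the plus strand like *BCR* and was not among the measured genes. Genes that overlap on opposite strands in RefSeq were measured elsewhere, as *STAT5A* with *STAT5B* and *SOCS2* with *SOCS2-AS1*. The authors took out overlapping genes, by a rule and RefSeq release that are not known here. Whether that step bears on *BCR* was not tested. The 250 bases in front of the *BCR* start (chr22:23180259-23180508, plus strand, GRCh38.p14, RefSeq) are shown because this promoter drives the fused gene. They hold 70.8% G and C and 20 CpG pairs.
BCR: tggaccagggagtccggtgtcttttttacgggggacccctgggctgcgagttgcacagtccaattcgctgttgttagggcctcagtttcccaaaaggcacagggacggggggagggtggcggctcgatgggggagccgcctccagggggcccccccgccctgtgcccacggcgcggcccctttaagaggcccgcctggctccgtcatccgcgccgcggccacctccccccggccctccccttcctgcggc

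*STAT5A* and *STAT5B* are near-identical transcription factors encoded side by side on chromosome 17. *STAT5A* (gene 6776, 42287439 to 42311943, plus strand) had 4152 normalized reads in control, 2914 in dIWS1 column 1 and 3157 in column 2. Its log2 ratio was −0.45 ± 0.15 (SE, adjusted p = 0.00586). *STAT5B* (gene 6777, 42199177 to 42288370, minus strand) had 10737, 6716 and 7190 normalized reads, and a log2 ratio of −0.63 ± 0.15 (SE, adjusted p = 0.000103). In both genes the dIWS1 columns lay below the 1 control column, on a scale where 96.4% of all genes had a mean log2 ratio below 0. The log2 ratio of *STAT5B* minus that of *STAT5A* was −0.17 in column 1 and −0.18 in column 2. The mean difference was −0.17, with a 95% counting error of ±0.07 from both columns together. The RefSeq spans of the pair overlap at their 5′ ends on opposite strands, and the authors counted with respect to strand. As paralogs they share sequence, and unique alignment leaves out read pairs that fit both.

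*JAK2*, the receptor-bound kinase (gene 3717, chromosome 9, 4984390 to 5129948, plus strand), had 7663 normalized reads in control, 6101 in dIWS1 column 1 and 6857 in column 2. It had the log2 ratio nearest to 0 among the members, −0.24 ± 0.15 (SE), which did not pass (adjusted p = 0.13). Its column ratios were −0.33 and −0.16. *JAK2* spans 145559 bases and *ABL1*, the member with the lowest log2 ratio, 174633. The log2 ratio of *ABL1* minus that of *JAK2* was −0.49 in column 1 and −0.57 in column 2. Whether length or level bears on this difference was not tested. The mean difference was −0.53, with a counting error of ±0.04 from both columns together. Of the genes longer than 65 kb, 86.4% had a lower log2 ratio than *JAK2*.

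The adaptors lay near the median gene. *GRB2* (gene 2885, chromosome 17, 75318076 to 75405678, minus strand) had 10535 normalized reads in control against 7654 and 8911 in the dIWS1 columns. Its log2 ratio was −0.35 ± 0.15 (SE, adjusted p = 0.0283), and its columns were furthest apart of all members, at −0.46 and −0.24. *GAB2* (gene 9846, chromosome 11, 78215293 to 78417820, minus strand), the longest member with 202528 bases, had 21677, 15720 and 16943 normalized reads. Its log2 ratio was −0.41 ± 0.14 (SE, adjusted p = 0.00808). Without the precision weights of voom neither adaptor passed (limma trend, adjusted p = 0.0943 for *GRB2* and 0.0635 for *GAB2*).

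Of the STAT5 targets among the members, *SOCS2* passed the test and *PIM1* and *CISH* did not. *SOCS2* (gene 8835, chromosome 12, 93569969 to 93626236, plus strand) had 2152 normalized reads in control, 1589 in dIWS1 column 1 and 1618 in column 2. Its log2 ratio was −0.42 ± 0.14 (SE, adjusted p = 0.0072), close to the median gene. *SOCS2-AS1*, the antisense gene at its 5′ end, had 326, 219 and 232 reads and a log2 ratio of −0.45. *PIM1* (gene 5292, chromosome 6, 37170152 to 37175428, plus strand) had 2168, 1735 and 1882 normalized reads, with a log2 ratio of −0.26 ± 0.15 (SE, adjusted p = 0.0966). *CISH* (gene 1154, chromosome 3, 50606489 to 50611774, minus strand) had 942, 785 and 780, with a log2 ratio of −0.27 ± 0.13 (SE, adjusted p = 0.0631). In both genes the dIWS1 columns lay below the control, but by less than the median gene. *CISH* lay above *SOCS2* in log2 ratio by 0.18 in column 1 and 0.14 in column 2. The mean of the 2 differences was 0.16, with a counting error of ±0.14 from both columns together. A single column has a larger error, which was not calculated. Between *PIM1* and *CISH* the difference was −0.06 in column 1 and 0.07 in column 2, within counting error. *PIM1* and *CISH* are the shortest members, with 5277 and 5286 bases, and the 2451 genes up to 10 kb had a median log2 ratio of −0.49.

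The 250 bases in front of the starts of *CISH* (chr3:50611775-50612024, minus strand) and *PIM1* (chr6:37169902-37170151, plus strand) are given as in RefSeq (GRCh38.p14), because these targets lay above the median gene in both dIWS1 columns and carry unlike promoters. Neither was called relative to the median gene. Capitals mark copies of TTCNNNGAA, the core that STAT5 binds, which reads alike on both strands and of which no copies overlap here.
CISH: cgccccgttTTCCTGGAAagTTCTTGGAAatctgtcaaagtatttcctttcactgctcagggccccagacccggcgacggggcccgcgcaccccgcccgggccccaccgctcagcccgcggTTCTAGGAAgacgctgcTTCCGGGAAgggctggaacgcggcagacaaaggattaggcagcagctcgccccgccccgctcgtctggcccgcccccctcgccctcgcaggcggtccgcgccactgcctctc
PIM1: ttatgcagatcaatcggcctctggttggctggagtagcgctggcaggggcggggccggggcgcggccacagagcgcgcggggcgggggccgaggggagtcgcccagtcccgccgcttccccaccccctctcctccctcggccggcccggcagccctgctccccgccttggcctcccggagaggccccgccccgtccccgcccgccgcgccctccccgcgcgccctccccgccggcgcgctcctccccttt
*CISH* has 4 copies, which begin 241, 230, 129 and 112 bases before the start. The *PIM1* window has none. In the windows searched, which also take in the first 50 bases after the start, 7.66% of 35116 hold at least 1 copy. Of the 9 members with a window, *BCR* among them, *CISH* was the 1 with a copy. *SOCS2* had no window and was not searched. No match says only that these letters are not in this window. Of the 8023 genes of the table with a window, 656 held at least 1 copy, and their median log2 ratio was −0.41 against −0.42 in genes without one. The 3 genes with at least 4 copies were *CISH*, *BCL6* and *ZNF225*.

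**Figure D3:**
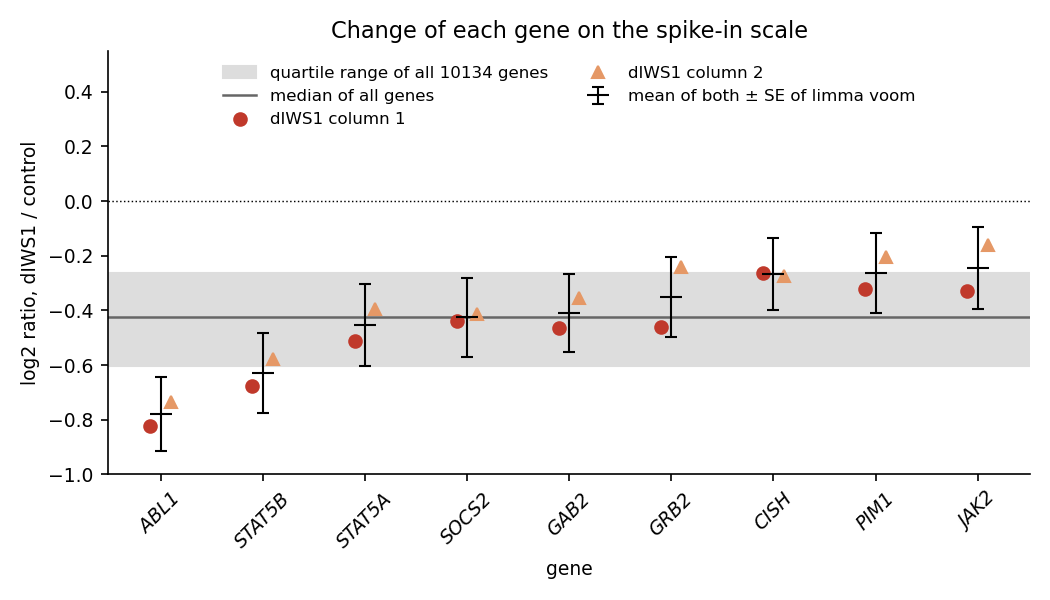
Log2 ratio of dIWS1 over control (vertical axis) for each measured gene (horizontal axis, ordered by ratio), with points for the dIWS1 columns, a bar for their mean and its SE from limma voom, a line for the median of all genes (−0.43) and a band for the range between their quartiles. *ABL1* and *STAT5B* lie below the band and the other members in it or just above it, with *JAK2* the highest at −0.24.

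Because most genes fell, each member was also set against the median gene. With 1 shift for both dIWS1 columns none of the 9 was called, with 4.78% of all genes called lower and 3.01% higher. *ABL1* then had a log2 ratio of −0.35 (adjusted p = 0.0856). At an unadjusted p under 0.05, 1 member was lower (*ABL1*) and 0 higher, and without the weights of voom 0 were lower (limma trend). The offset between the dIWS1 columns enters the SE of that fit, which was 0.13 to 0.15 for the members. In a fit added after the data were seen, each dIWS1 column was centred on its own median gene, and the SE of the members fell to 0.05 to 0.08. There 12.8% of all genes were called lower and 12.8% higher. Relative to the median gene *ABL1* was then lower, with a log2 ratio of −0.36 ± 0.05 (SE, adjusted p = 0.000826), and so was *STAT5B*, with −0.21 ± 0.06 (SE, adjusted p = 0.0279). The column values were −0.35 and −0.36 for *ABL1*, and −0.20 and −0.21 for *STAT5B*. None of the other 7 passed, and *JAK2* came nearest, at 0.18 ± 0.06 (SE, adjusted p = 0.0612). In both columns 3 members lay below the median gene (*ABL1*, *STAT5B* and *STAT5A*) and 5 above it (*GAB2*, *GRB2*, *CISH*, *PIM1* and *JAK2*). Among all 10134 genes, 4244 lay below it in both columns and 4244 above it in both. *SOCS2* lay at 0.04 in one and −0.04 in the other. In the order of the mean ratios only neighbours were compared. The steps from *ABL1* to *STAT5B* and from *STAT5B* to *STAT5A* held in both columns. The step from *GAB2* to *GRB2* also held, by 0.003 in column 1 and 0.11 in column 2. *STAT5A* and *SOCS2* changed places between the columns, as did *SOCS2* and *GAB2*. So did *GRB2* and *CISH*, *CISH* and *PIM1*, and *PIM1* and *JAK2*. Both column ratios divide by the same control column, so an error in a control value enters both.

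The members differed more in level than in change. Per kb of RefSeq span and averaged over all columns, *PIM1* had the highest level with 377 normalized reads. It was followed by *ABL1* (210), *CISH* (163), *STAT5A* (147), *GRB2* (107), *STAT5B* (99.2), *GAB2* (93.8), *JAK2* (48.6) and *SOCS2* (33.4). The median over all genes was 35.6, so that 8 of the 9 lay above it. The steps from *GRB2* to *STAT5B* and from *STAT5B* to *GAB2* were smaller than the gap between the dIWS1 columns. In the control column alone *STAT5B* (120.4) and *GRB2* (120.3) were level, and *GAB2* had 107. On summed exon length instead, *ABL1* came first with 5249 normalized reads per kb and *CISH* last with 171. Exons cover 5056 of the 5286 bases of *CISH* and 6991 of the 174633 of *ABL1*. The span of *SOCS2* is 56268 bases in RefSeq but 13674 in GENCODE release 44, so its level per kb depends on the annotation.

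**Figure D4:**
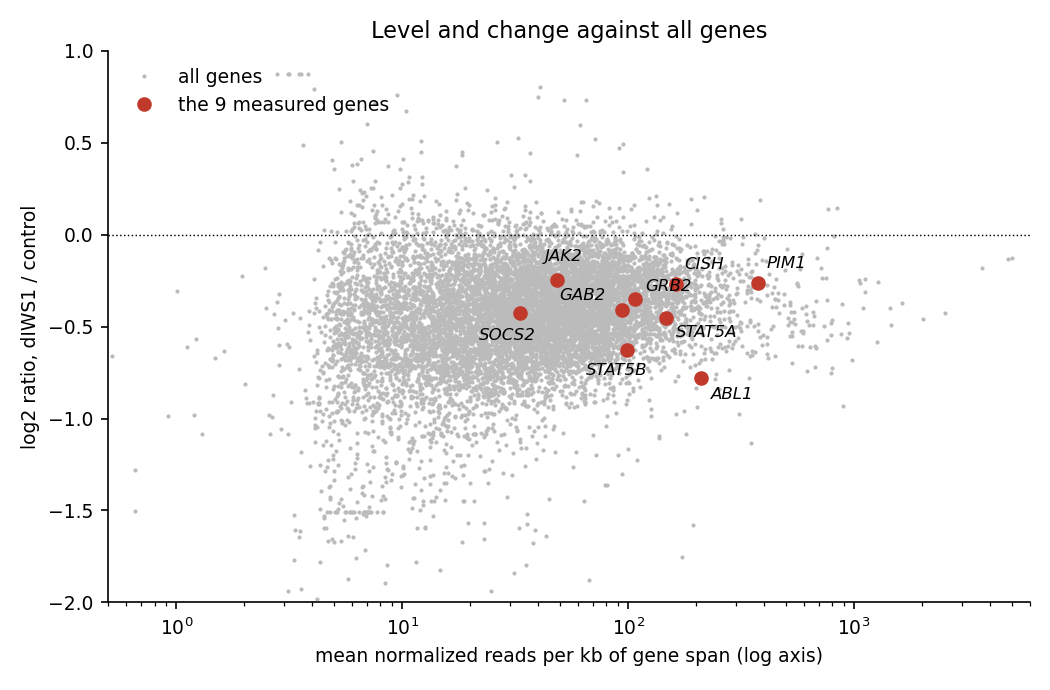
Log2 ratio of dIWS1 over control (vertical axis, cropped to the range with nearly all genes) against the mean normalized reads per kb of gene span (horizontal log axis) for all genes (grey) and the 9 measured genes (red). *PIM1* (377 per kb) lies furthest right and *ABL1* (−0.78) lowest among the members.

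The other genes of the pathway, are a list of 88, of which 62 were measured. Of the 62, 37 were called lower (59.7%, against 64.5% of all genes) and none higher, with a median log2 ratio of −0.39. In the groups below, fell means called lower, and the ranges cover the called genes only. Of the genes not called, the highest lay at −0.08 among the receptors and −0.05 among the STAT5 targets. *PIK3R1*, a regulatory subunit of PI3K, and *SOCS1* lay above 0 at 0.12 and 0.02 without passing. All others lay below 0, called or not.

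Among receptors upstream of JAK2 and STAT5, 3 of 6 fell. Of these *IL2RG*, the shared chain of interleukin receptors, had the lowest log2 ratio (−0.56) and *IFNGR1*, of the interferon gamma receptor, the highest (−0.37). Among the kinases related to the members, 4 of 5 fell, from *TYK2*, of the JAK family, at −0.58 to *LYN*, of the SRC family, at −0.39. *ABL2*, the paralog of *ABL1*, lay between them at −0.45 with 15863, 11157 and 10760 reads in control and the dIWS1 columns. Its span is on chromosome 1, and its ratio was near the median gene. Of the other STAT genes, *STAT3* (−0.44) and *STAT6* (−0.40) fell.

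Of the adaptors of the BCR-ABL complex 9 of 12 fell, from *DOK1* (−0.53) to *CBLB* (−0.41), a ubiquitin ligase. *CRKL*, a substrate of BCR-ABL that lies on chromosome 22 like *BCR*, did not pass (−0.23, adjusted p = 0.143) and had the highest level of that group, 349 normalized reads per kb. Of the RAS, RAF and PI3K effectors 7 of 12 fell, from *HRAS* (−0.73, with 98 control reads) to *NRAS* (−0.32). Of the inhibitors of JAK-STAT signalling 5 of 12 fell, from *SOCS7* (−0.69) to *PIAS2* (−0.32). Their relatives *SOCS1* and *SOCS3* had 137 and 55 control reads, and *SOCS3* did not pass at −0.27. Of the STAT5 targets 7 of 11 fell, from *BCL2L1* (−0.71), a survival gene, to *SPRED2* (−0.37). *PIM2*, the paralog of *PIM1*, was at −0.39 and passed.

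With each column centred on its own median gene, 5 of the 62 were called lower (*PIK3CB*, *AKT1*, *SOCS7*, *BCL2L1* and *CCND3*) and 13 higher, against 12.8% of all genes in either direction. *PIK3R1* had the smallest adjusted p of the 13 (0.000376). These genes were chosen after their values were seen.

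**Figure D5:**
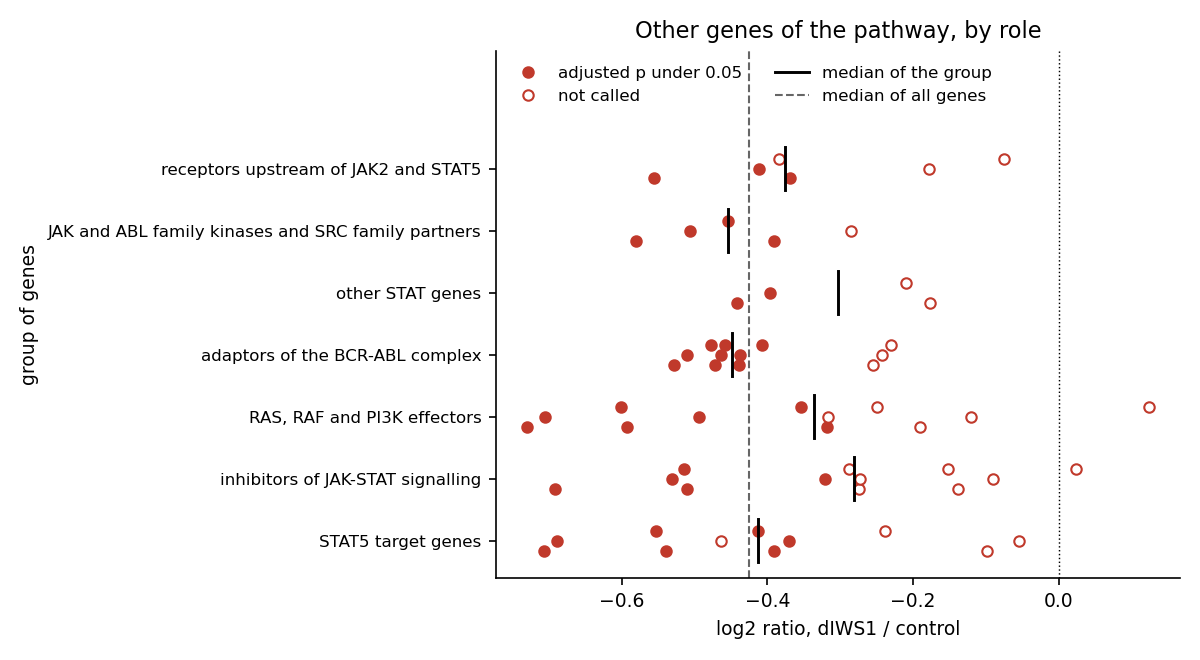
Log2 ratio of dIWS1 over control (horizontal axis) of the 62 other pathway genes in 7 groups by role (vertical axis), filled where the adjusted p was under 0.05, with a bar for the median of each group and a dashed line for the median of all genes (−0.43). The medians run from −0.45 for the kinases to −0.28 for the inhibitors.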

How the data were processed

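For this comparison 2 control and 2 dIWS1 TT-seq libraries were sequenced. The authors aligned read pairs with STAR 2.6.0 to a GRCh38 reference that also held the spike-ins, used only unique pairs, counted last incorporated bases per RefSeq gene with respect to strand, took out overlapping genes and genes of low RPK, and ran DESeq2, scaled by spike-in reads. The deposited table holds, per gene, a signal (counts scaled by size factor, averaged over 4 library columns) and the authors' comparison in log2 units with its standard error, Wald statistic, p-value and adjusted p-value. The values of that comparison are not reported. Its log2 fold change served only to narrow the search for whole reads and to name the dIWS1 side.

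Means up to 2 gave 3 steps, the value of 1 read in each distinct column. Each mean was then split into whole numbers of these steps, which gave 1 solution for 10134 of 10136 genes above 0 (99.98%). The 2 genes with several solutions and 11 genes at 0 were left out. Reads entered limma 3.58.1 (voom, R 4.3.3) with spike-in size factors and the control once, which leaves 1 residual degree of freedom a gene, with the variance pooled over genes. Log2 ratios per column used a pseudocount of 0.5 reads. Tests were two-sided. Counting intervals (95%) cover counting error only. The libraries are biological replicates by the labels, but the control has no spread of its own here, so p-values rest on the difference between the dIWS1 columns.

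Gene numbers, spans and promoter windows came from RefSeq (GRCh38.p14) and strands and exons from GENCODE release 44. Of the gene names, 9351 were matched by symbol, 169 by gene number, 576 by synonym and 51 not at all. The recovery of reads and the fit were tested on simulated data. The simulated counts for the fit had no offset between the dIWS1 columns, so they could not test how that offset bears on the p-values. The members, lists and tests were chosen with earlier results of these data known. Named genes were every member, the called genes with the lowest and highest log2 ratio in each pathway role, and relatives of members, of which 1 is not reported here. Python 3.11.15, numpy 2.4.6, pandas 2.3.3 and matplotlib 3.10.9 were used. Alternatives were other fits, minimum means, thresholds, size factors, pseudocounts and columns left out.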

Additional observations from a re-analysis of the deposited data

How the results depend on the processing

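On the spike-in scale 6 members were called lower, and again 6 under minimum means of 10 and 100, but 4 with limma trend, 5 at an adjusted p under 0.01, 8 under 0.1 and 9 with the control entered 2 times. The scaling mattered most. With total reads in genes as size factors 2 members were called lower and 1 higher, 1124 genes were called lower and 1526 higher, and the median of the members was 0.032. The log2 ratios of *PIM1* (0.18), *CISH* (0.17), *SOCS2* (0.017), *GRB2* (0.091), *GAB2* (0.032) and *JAK2* (0.20) then changed sign. Recentred on the median gene, 0 members were called lower, 484 genes were lower and 305 higher, 0 pathway genes were lower and 1 higher (*PIK3R1*), and the median of the members was 0.016. *PIM1* (0.16), *CISH* (0.16), *SOCS2* (0.0011), *GRB2* (0.074), *GAB2* (0.016) and *JAK2* (0.18) changed sign. A minimum change of 0.5 left 2 members, 3754 genes lower and 4 higher. Over all genes, those called higher were 6 at an adjusted p under 0.01, 23 under 0.1 and 61 with the control entered 2 times. Relative to the median gene 1 member was lower at an adjusted p under 0.1, and 2 with each column recentred, with or without weights, where 1293 genes were lower and 1300 higher. These last settings were added after the data were seen. The size factors themselves cause the changes of sign. Leaving out either dIWS1 column, no pseudocount or a pseudocount of 5 changed no member's direction. Columns left out gave values with no test. No paired analysis was possible because the recovered columns carry no replicate numbers. With 1 distinct control column, the spread between controls was not measured.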
